A study of Mus musculus with 12 samples.

Results

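The interleukin-6 (IL-6) family was followed here through 9 genes chosen by name: the cytokines Il6, Lif, Il11 and Clcf1, the receptor chains Il6st, Il6ra, Lifr and Osmr, and the feedback inhibitor Socs3. All 9 names were found in both deposited count tables, among 28447 gene names at day 1 and 30809 at day 14, and all 9 passed the filter on low counts in every comparison. Cytokines of this family bind receptor complexes that share the signalling chain gp130, the product of Il6st. IL-6 uses IL-6R (Il6ra) beside gp130, IL-11 a receptor chain of its own, LIF and CLCF1 signal through gp130 paired with the LIF receptor (Lifr), and oncostatin M through gp130 paired with OSMR or, in some settings, LIFR. The complexes activate JAK kinases and the transcription factor STAT3, and STAT3 induces Socs3, whose product blocks gp130. Vascular smooth muscle cells are a known source of IL-6 in the vessel wall.

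RNA was sequenced from primary vascular smooth muscle cells of the mouse aorta in 4 groups of 3 libraries: wild type (WT) at day 1 and day 14, and NR4A3 knockout (KO) at day 1 and day 14. NR4A3 is an orphan nuclear receptor of the NR4A family. The culture protocol gives beta-glycerophosphate (beta-GP), a phosphate donor that drives mineral deposition, to the cells of all 4 groups, but the treatment label names it for KO alone and reads none for WT. Genotype and that difference in labels cannot be told apart. The sources used here do not give how NR4A3 was knocked out, which part of the gene was removed, or whether replicates came from different mice or cultures. The p-values thus reflect the scatter of these libraries, and that scatter may be technical. Each day has its own table, so that day and table cannot be told apart in comparisons between days.

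Library totals were 13847020 to 30102958 counts. Nr4a3 itself averaged 2.074 CPM (counts scaled to a common library size, the usual CPM unit) in KO against 4.244 CPM in WT at day 1, and 49.59 against 236.9 CPM at day 14, lower in KO at both days. WT replicate 1 of day 14 stood apart from the rest of its group (chi-square per gene of 36.15 and 51.48 against the other two, and 2.906 to 19.55 for every other pair of replicates). The members' day 14 fold changes are therefore also given without it, as are list counts where those given changed. Single pathway and marker genes are given with all libraries. KO libraries of day 1 and WT libraries of day 14 were the closest pair of groups, with 9.78% of 15973 genes called different (1562 genes, and 5538 without WT replicate 1 of day 14). Nr4a3 averaged 2.074 CPM in the former and 236.9 CPM in the latter. It rose between the days in both genotypes (4.244 to 236.9 CPM in WT and 2.074 to 49.59 CPM in KO). Its difference between these 2 groups therefore cannot check the genotype labels. The labels were used as given, and whether every library carries the right one was not tested beyond Nr4a3 within each day. Of 8 smooth muscle markers, Acta2, Des and Smtn were well expressed, whereas Myh11, Tagln and Myocd, which define the contractile state, were under 1 CPM on average in each group.

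Promoter sequences are shown for the 3 cytokine genes that were higher in KO at day 14 and for Socs3, because they hold the matches to binding motifs found among the family. Each is the 250 bases before the start site on the gene's own strand, from RefSeq with coordinates on GRCm38.p6: Il6 at chr5:30012864-30013113 (plus strand), Lif at chr11:4257318-4257567 (plus strand), Il11 at chr7:4778142-4778391 (minus strand) and Socs3 at chr11:117969367-117969616 (minus strand). The bases just after the start were found in a GENCODE M21 transcript of the gene for Il6, Lif and Il11, but not for Socs3. The place of the Socs3 start is thus less certain. Capitals mark the motif matches.
Il6: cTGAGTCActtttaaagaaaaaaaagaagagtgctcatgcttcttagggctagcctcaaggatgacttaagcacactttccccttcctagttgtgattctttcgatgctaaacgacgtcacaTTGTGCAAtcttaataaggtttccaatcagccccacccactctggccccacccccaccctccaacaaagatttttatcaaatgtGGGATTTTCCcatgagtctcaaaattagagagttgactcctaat
Lif: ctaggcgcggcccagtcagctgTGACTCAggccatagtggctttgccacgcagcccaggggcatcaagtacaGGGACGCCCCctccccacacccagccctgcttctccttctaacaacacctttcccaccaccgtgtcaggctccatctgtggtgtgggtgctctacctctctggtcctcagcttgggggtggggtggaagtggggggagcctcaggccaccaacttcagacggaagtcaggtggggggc
Il11: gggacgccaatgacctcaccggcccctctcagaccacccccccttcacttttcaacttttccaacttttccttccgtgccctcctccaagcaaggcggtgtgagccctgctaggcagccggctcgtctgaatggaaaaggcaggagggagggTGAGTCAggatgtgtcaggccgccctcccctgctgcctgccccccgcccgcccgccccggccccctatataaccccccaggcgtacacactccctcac
Socs3: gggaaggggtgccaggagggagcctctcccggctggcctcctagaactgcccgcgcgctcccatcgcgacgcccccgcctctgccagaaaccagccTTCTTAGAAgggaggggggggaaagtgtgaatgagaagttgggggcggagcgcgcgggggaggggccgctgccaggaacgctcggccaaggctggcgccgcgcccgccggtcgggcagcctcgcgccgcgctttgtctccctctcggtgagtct

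Of the 9 members, 8 had 1 or more RefSeq windows, 10 windows in all, and Clcf1 had none. The motifs were searched on both strands: AP-1 as TGANTCA, C/EBP as TTGCNNAA, STAT as TTCNNNGAA, and the NR4A element NBRE as AAAGGTCA. NF-kB was searched as a letter pattern that starts with GGG and ends with CC, with the bases between only partly fixed. The Il6 window held AP-1 (TGAGTCA, 249 to 243 bases upstream of the start), C/EBP (TTGTGCAA, 128 to 121) and NF-kB (GGGATTTTCC, 44 to 35). In the Lif window AP-1 (TGACTCA) lay 228 to 222 bases upstream and NF-kB (GGGACGCCCC) 178 to 169. Il11 had AP-1 (TGAGTCA) 98 to 92 bases upstream in the window shown, and Socs3 had STAT (TTCTTAGAA) 154 to 146 bases upstream. None of the 5 motifs was found in the second Il11 window or in those of Il6st, Il6ra, Lifr and Osmr, and NBRE was in none of the 10. Among 32851 windows of 250 bases over all genes, AP-1 was in 6.75%, C/EBP in 9.56%, NF-kB in 7.25%, STAT in 7.02% and NBRE in 1.34%. No match overlapped another, and a match describes letters only, since binding was not measured.

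The comparison of KO with WT asks how loss of NR4A3 relates to expression at each day, with the difference in treatment labels included. At day 1 the family was mostly lower in KO: Il6, Il6st, Il6ra, Osmr and Socs3 fell, Lifr rose, and Lif, Il11 and Clcf1 did not pass the test. At day 14 it was mostly higher in KO: Il6, Lif, Il11, Il6st, Il6ra, Osmr and Socs3 rose, and Clcf1 and Lifr did not pass. In counts, 5 of 9 members were lower and 1 higher at day 1, where 30.2% of 15365 tested genes were lower and 30.6% higher. At day 14, 7 were higher and the other two did not pass, where 22.7% of 14902 tested genes were higher and 23.7% lower.

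**Figure D1:**
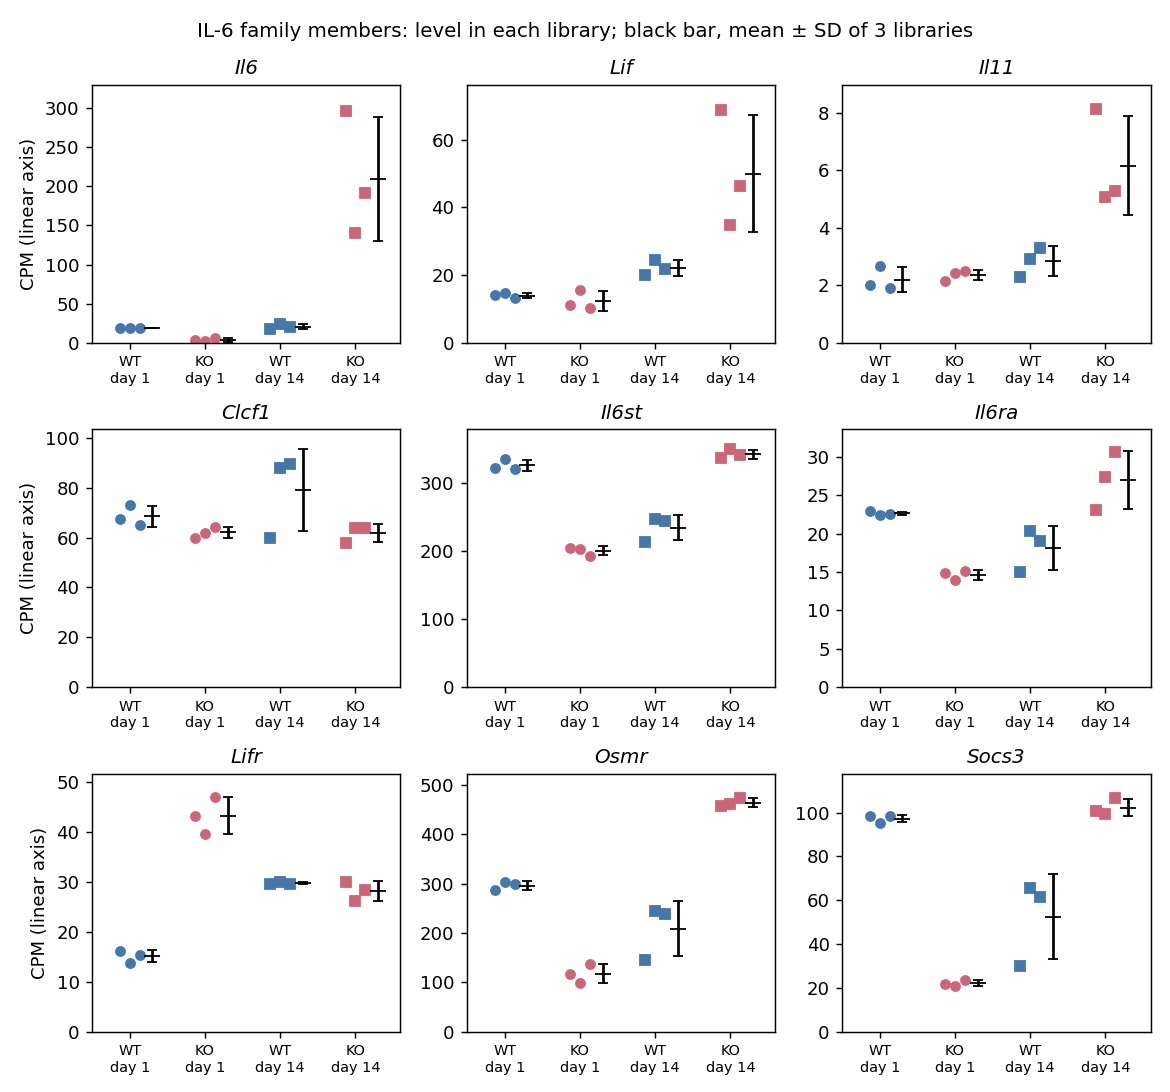
Level of each member in CPM on a linear axis that starts at 0, 1 panel a gene, for WT (blue) and KO (red) at day 1 (circles) and day 14 (squares). Each point is 1 library and the black bar the mean ± SD of 3. Il6 reached 140.4 to 296.3 CPM in KO at day 14 and 24.05 CPM or less in every other library, and Osmr and Socs3 were lowest in KO at day 1.

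Markers of other cells were measured in the same libraries. The summed level of 7 adventitial fibroblast markers was 107.7 to 116.6 CPM in WT against 43.34 to 67.01 CPM in KO on day 1. On day 14 it was 45.42 to 65.86 CPM in WT against 92.67 to 100 CPM in KO. It was thus lower in KO at day 1 and higher at day 14, as Il6, Il6st, Il6ra, Osmr and Socs3 were, and its part in those results was not tested. The markers were not of 1 direction: at day 14 Pdgfra was higher in KO (75.75 ± 2.72 against 33.27 ± 6.33 CPM) and Dcn lower (8.468 ± 1.11 against 23.3 ± 5.18 CPM, log2 fold change -1.47, adjusted p = 3.769e-04 by edgeR). Dpt had 0 counts in KO at day 1 and Lum 0 in KO at day 14. The 6 leukocyte markers in both tables summed to 60.1 to 65.62 CPM in WT and 60.62 to 72.95 CPM in KO at day 1. Of the 3 tested at day 1, Cd68 (1.15 ± 0.12) and Lyz2 (1.56 ± 0.45) were higher in KO and Cd14 lower (-1.30 ± 0.08). At day 14 the 6 markers summed to 64.31 to 95.64 CPM in WT and 50.29 to 54.21 CPM in KO. Of the 4 tested at day 14, Cd68 was lower in KO (-0.92 ± 0.19) and Csf1r higher (1.36 ± 0.29, adjusted p = 0.004733 by edgeR). Without WT replicate 1, 3 were tested, with 1 higher and 2 lower. Csf1r averaged 2.794 ± 0.286 CPM in KO against 1.07 ± 0.233 CPM in WT at that day. Ptprc and Adgre1, which define leukocytes and macrophages, were under 1 CPM on average in each group, with 0 counts of Ptprc in WT at day 1 and of Adgre1 in WT at day 14. The 5 endothelial markers summed to 13.63 to 16.09 CPM in WT against 4.612 to 6.488 CPM in KO on day 1, and to 7.845 to 10.18 against 6.99 to 8.252 CPM on day 14. Cdh5 made up most of the day 1 sums (14.06 ± 1.07 CPM in WT against 3.699 ± 0.42 in KO), and the other 4 were under 1 CPM on average in both groups. Vwf went the other way at day 1 (1.22 ± 0.45, adjusted p = 0.03041 by edgeR). At day 14 Kdr and Vwf were lower in KO (-2.84 ± 0.69 and -2.09 ± 0.62), and Cdh5 did not pass. Smooth muscle markers summed to 1021 to 1082 CPM in WT against 1294 to 1482 CPM in KO on day 1, and to 1134 to 1849 against 2000 to 2398 CPM on day 14. The higher sums in KO came with Acta2 (666.9 ± 33.8 against 276.2 ± 19.3 CPM on day 1 and 1626.0 ± 190.0 against 661.4 ± 107.5 CPM on day 14), while Smtn fell at both days (-0.90 and -0.75) and Des fell at day 14 (-0.77, adjusted p = 0.01238 by edgeR). Of the 5 smooth muscle markers tested, 3 were higher and 1 lower in KO at day 1, and 2 were higher and 2 lower at day 14. Without WT replicate 1 of day 14, 6 were tested there, with 2 higher and 3 lower. Lmod1 rose at day 1 (3.95 ± 0.28), and Cnn1 rose at both days (1.49 ± 0.49 and 1.66 ± 0.47). What part the markers of any of these cells had in the members' changes was not tested.

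Il6 encodes the family's founding cytokine. Its WT levels were 18.9, 19.45 and 18.5 CPM on day 1 (replicates 1 to 3, as in all such triplets here) and 17.54, 24.05 and 20.57 CPM on day 14. Its KO levels were 2.995, 1.945 and 6.574 CPM on day 1 and 296.3, 140.4 and 191.4 CPM on day 14. All KO libraries lay below all WT libraries at day 1 and above them at day 14, while WT libraries of the 2 days overlapped. The log2 fold change of KO over WT, from each day's own fit in edgeR, was -2.27 ± 0.27 (SE) at day 1 (adjusted p = 1.034e-05) and 3.33 ± 0.27 at day 14 (adjusted p = 2.232e-05), a 10.06-fold higher level. Without WT replicate 1 the day 14 value was 3.21, and without KO replicate 3, the highest of its group, the day 1 value was -2.92. In these bulk samples, fewer cells of a type and less RNA per cell cannot be told apart.

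Lif encodes leukemia inhibitory factor. At day 1 it stood at 14, 14.67 and 13.19 CPM in WT and at 11.04, 15.72 and 10.27 CPM in KO, with overlapping groups (log2 fold change -0.17 ± 0.15, adjusted p = 0.3343 by edgeR). KO replicate 2, the highest library, decided this: without it the change was -0.38 with an adjusted p of 0.00864 by edgeR, lower in each of the 2 remaining KO libraries. At day 14 it stood at 19.99, 24.47 and 21.9 CPM in WT and at 68.87, 34.77 and 46.29 CPM in KO. Every KO library was then above every WT library (1.17 ± 0.23, adjusted p = 0.002803 by edgeR), and the value without WT replicate 1 was 1.09.

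Il11 encodes interleukin-11, a cytokine linked to fibrosis, and was the member with the fewest counts (39 to 134 per library). At day 1 it stood at 2.012, 2.687 and 1.902 CPM in WT and at 2.163, 2.445 and 2.483 CPM in KO, and the groups overlapped (log2 fold change 0.11 ± 0.25, adjusted p = 0.7274 by edgeR). By day 14 the levels were 2.298, 2.928 and 3.313 CPM in WT and 8.145, 5.078 and 5.281 CPM in KO, without overlap. The day 14 change was 1.10 ± 0.27 (adjusted p = 0.008376 by edgeR) and 0.94 without WT replicate 1. Il6, Lif and Il11 were each highest in replicate 1 and lowest in replicate 2 of KO at day 14, with coefficients of variation of 37.96%, 34.71% and 27.81%. In the same libraries the value was 14.07% for Il6ra, 6.914% for Lifr and 5.72% for Clcf1. It was 1.979%, 1.872% and 3.787% for Il6st, Osmr and Socs3. The ratio of Il6 to Lif per exon length was 7.709, 7.235 and 7.408 in these 3 libraries, so that Il6 and Lif differed between them in nearly fixed proportion.

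Clcf1 encodes cardiotrophin-like cytokine factor 1. At day 1 it stood at 67.56, 73.01 and 64.86 CPM in WT and at 60, 61.89 and 64.33 CPM in KO, just without overlap (log2 fold change -0.13 ± 0.07, adjusted p = 0.1027 by edgeR). The day 14 libraries gave 59.91, 87.7 and 89.39 CPM in WT and 57.68, 63.69 and 63.91 CPM in KO. WT replicate 1 lay among the KO libraries, and the change was -0.37 ± 0.15 (adjusted p = 0.07567 by edgeR). Without that library it was -0.55 (adjusted p = 8.566e-06), with both remaining WT libraries above all 3 of KO. With all libraries it passed under some settings and not others: adjusted p = 0.04238 with library size alone, 0.01807 with no filter, 0.0456 with the replicate number as a block and 0.02428 in the fit of 12 libraries (edgeR).

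Among the receptor chains, Il6st encodes gp130. At day 1 it stood at 322.4, 334.8 and 320.4 CPM in WT and at 204.7, 203.2 and 192.5 CPM in KO. At day 14 it stood at 212.7, 246.4 and 244.2 CPM in WT and at 335.9, 349.3 and 340.5 CPM in KO. The groups did not overlap at either day, and the order of genotypes was opposite: WT above KO at day 1, KO above WT at day 14. The log2 fold change was -0.69 ± 0.05 at day 1 (adjusted p = 1.631e-07 by edgeR) and 0.53 ± 0.09 at day 14 (adjusted p = 0.001164), with 0.45 without WT replicate 1.

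Il6ra encodes the IL-6-binding chain, which also acts in soluble form. It stood at 22.92, 22.45 and 22.51 CPM in WT and at 14.92, 13.95 and 15.1 CPM in KO at day 1. Day 14 levels were 14.99, 20.36 and 19.09 CPM in WT and 23.04, 27.44 and 30.61 CPM in KO. As for Il6st, the groups did not overlap and their order turned. The log2 fold change was -0.62 ± 0.09 at day 1 (adjusted p = 6.409e-05 by edgeR) and 0.57 ± 0.16 at day 14 (adjusted p = 0.01711). The day 14 call was lost without KO replicate 2 (adjusted p = 0.0635) or without KO replicate 3 (adjusted p = 0.0916), and the fold change was 0.43 without WT replicate 1.

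Osmr encodes the oncostatin M receptor chain and varied most among the 4 receptor genes in CPM. At day 1 it stood at 286.1, 303.6 and 298.2 CPM in WT and at 116.7, 98.23 and 137.9 CPM in KO. On day 14 the libraries held 144.8, 244.0 and 238.2 CPM in WT and 457.0, 460.6 and 473.5 CPM in KO. KO was below WT in every library at day 1 and above it in every library at day 14, where WT replicate 1 was the lowest of its group. The log2 fold change was -1.32 ± 0.09 at day 1 (adjusted p = 8.36e-08 by edgeR) and 1.14 ± 0.18 at day 14 (adjusted p = 9.133e-04), with 0.91 without that library.

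Lifr encodes the LIF receptor chain and moved against the other receptor genes. It stood at 16.13, 13.79 and 15.29 CPM in WT and at 43.09, 39.56 and 46.99 CPM in KO at day 1. The levels at day 14 were 29.63, 30.05 and 29.57 CPM in WT and 29.97, 26.1 and 28.4 CPM in KO. KO was far above WT at day 1, and the groups overlapped at day 14. The log2 fold change was 1.53 ± 0.10 at day 1 (adjusted p = 2.245e-08 by edgeR) and -0.09 ± 0.10 at day 14 (adjusted p = 0.5026), with -0.11 without WT replicate 1.

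Socs3 encodes the STAT3-induced inhibitor of gp130. It stood at 98.27, 95.35 and 98.27 CPM in WT and at 21.63, 20.95 and 23.57 CPM in KO at day 1. At day 14 it stood at 30.23, 65.6 and 61.61 CPM in WT and at 100.7, 99.52 and 106.7 CPM in KO. The groups did not overlap at either day, and WT replicate 1 of day 14, at 30.23 CPM, lay nearer to the KO libraries of day 1 than to its own group. The log2 fold change was -2.13 ± 0.07 at day 1 (adjusted p = 5.963e-11 by edgeR) and 0.95 ± 0.24 at day 14 (adjusted p = 0.01129). Without WT replicate 1 the day 14 value was 0.66 (adjusted p = 1.046e-06 by edgeR). With that library left out, 8 of 9 members were called at day 14, against 30.04% of 15165 genes called higher and 30.68% lower.

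**Figure D2:**
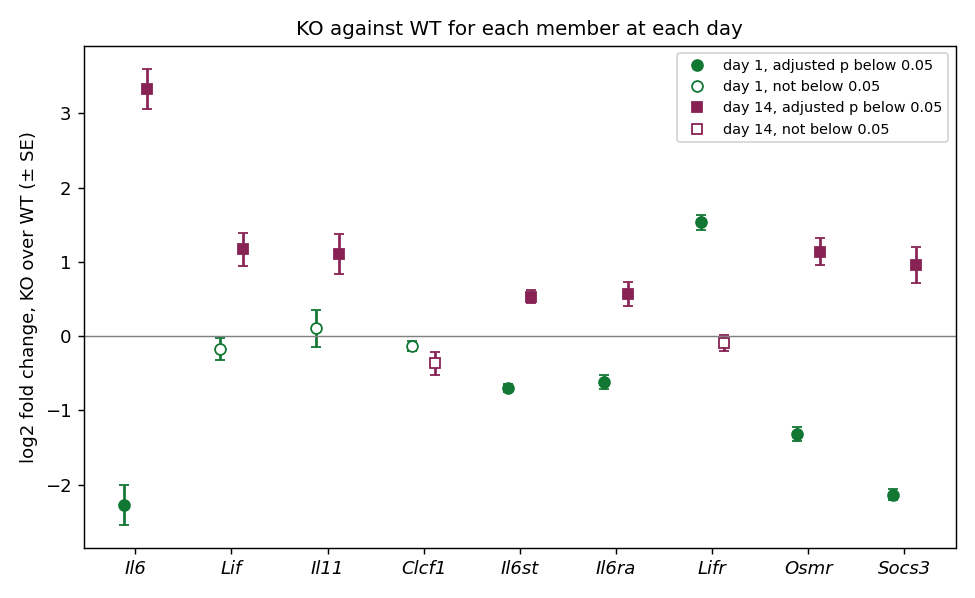
Log2 fold change of KO over WT (± SE) for each member at day 1 (green circles) and day 14 (purple squares), 3 libraries a group. Filled symbols mark an adjusted p below 0.05. Il6, Il6st, Il6ra, Osmr and Socs3 lie below 0 at day 1 and above 0 at day 14, and Lifr lies at 1.53 at day 1 and -0.09 at day 14.

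Whether the KO effect differed between the days was tested as an interaction in 1 edgeR fit of the 12 libraries. The effect moved upward for 7 of 9 members and downward for 1, Lifr, where 29.5% and 30.5% of 15973 genes moved upward and downward. Among the members the change was largest for Il6 (5.62 ± 0.43 SE on the log2 scale, adjusted p = 2.856e-08), followed by Socs3 (3.11 ± 0.27, adjusted p = 1.397e-07) and Osmr (2.48 ± 0.22, adjusted p = 1.594e-07). Lif moved by 1.36 ± 0.29 and Il11 by 1.02 ± 0.35 (adjusted p = 9.766e-04 and 0.02017 by edgeR). The Il11 call was lost without WT replicate 2 of day 1, without KO replicate 1 of day 14, or with scaling by library size alone. Il6st moved by 1.25 ± 0.10, Il6ra by 1.20 ± 0.18 and Lifr by -1.60 ± 0.14 (adjusted p = 4.578e-08, 4.098e-05 and 1.294e-07 by edgeR). Clcf1 did not pass (-0.21 ± 0.17, adjusted p = 0.3003 by edgeR), but did without WT replicate 1 of day 14 (-0.41, adjusted p = 0.001678).

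Between the days the genotypes differed in which members moved. In WT, 2 members were higher at day 14 (Lif and Lifr) and 4 lower (Il6st, Il6ra, Osmr and Socs3), where 25.8% of genes were higher and 26.1% lower. Lifr rose by 0.98 ± 0.10 on the log2 scale and Socs3 fell by 0.89 ± 0.19 (adjusted p = 1.145e-06 and 0.00105 by edgeR), with no overlap between the days. The fall of Il6ra (-0.32 ± 0.13, adjusted p = 0.04643 by edgeR) was lost on leaving out any 1 library other than WT replicate 2 or KO replicate 1 of day 14 (-0.39 to -0.19 over all libraries left out), and the rise of Lif without WT replicate 3 of day 1 (0.62, adjusted p = 0.05273). In KO, 7 members were higher at day 14 and 1, Lifr, lower, where 26.9% of genes were higher and 27.9% lower. Il6 rose by 5.74 ± 0.34, the 29th largest rise of 15973 genes (adjusted p = 2.634e-09 by edgeR), Socs3 by 2.21 ± 0.20 and Osmr by 1.98 ± 0.16. These 2 comparisons and the interaction share libraries with those of KO against WT, so their values are the same data seen from another side.

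The order of the 4 groups fell into several patterns. Il6, Lif and Il11 were highest in KO at day 14, followed by WT at day 14. For Il6 the WT groups did not differ (adjusted p = 0.7411 in the edgeR fit of 12 libraries) and KO at day 1 came last. For Lif the WT groups differed and the day 1 groups did not, and for Il11 only KO at day 14 stood apart from its neighbour. Il6st, Il6ra, Osmr and Socs3 shared 1 order, from KO at day 14 through WT at day 1 and WT at day 14 to KO at day 1. The first step was called for Osmr alone (463.7 ± 8.68 against 296.0 ± 8.98 CPM, SD, n = 3, adjusted p = 0.002691 by edgeR), the second for all 4 (Il6ra with an adjusted p of 0.04643), and the last for Osmr and Socs3. Lifr had KO at day 1 on top, both day 14 groups between them without a called difference, and WT at day 1 last. No neighbours differed for Clcf1. Across the diagonals, 5 of 9 members were higher in KO at day 14 than in WT at day 1 and the other 4 did not pass, where 50.7% of genes were called. KO at day 1 against WT at day 14, the closest groups over all genes at 9.78%, gave 4 members lower in KO (Il6, Lif, Osmr and Socs3) and 1 higher (Lifr). Without WT replicate 1 of day 14, 8 members and 5538 genes were called there, against 5 members and 1562 genes with all libraries. The share of 9.78% thus does not belong to the count of 8. The call for Lif was lost without any 1 of KO replicates 1 and 3 or WT replicates 2 and 3.

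Levels of different genes were compared as CPM per kilobase of exon, on GENCODE M21 lengths. Socs3 was the most abundant member in WT at day 1 (33.66 ± 0.583, SD, n = 3), followed by Il6st (29.36 ± 0.702) and Osmr (24.43 ± 0.742). In KO at day 1 Il6st led (18.03 ± 0.602), followed by Clcf1 (16.31 ± 0.57), with Il6 at 1.581 ± 1.0 near the bottom. In WT at day 14 Il6st, Clcf1, Socs3 and Osmr stood at 21.12 ± 1.70, 20.76 ± 4.35, 18.15 ± 6.70 and 17.26 ± 4.59, within each other's spread. In KO at day 14 Il6 led at 86.24 ± 32.74, ahead of Osmr at 38.28 ± 0.717 and Socs3 at 35.39 ± 1.34. Il11 was last or second to last in each group, at 1.057 to 2.964.

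**Figure D3:**
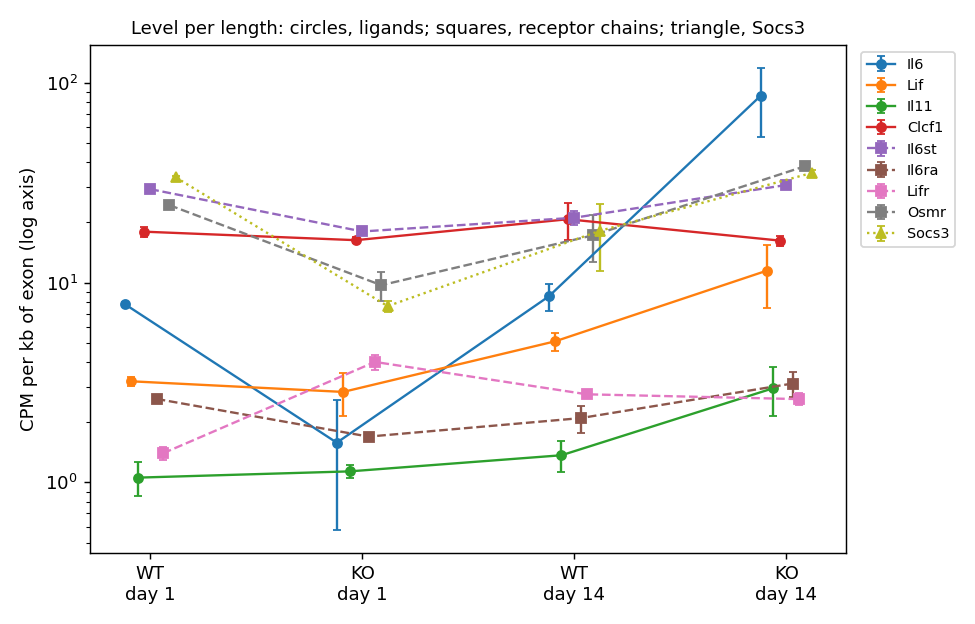
Mean level per exon length (CPM per kilobase, log axis) of each member in the 4 groups, with SD of 3 libraries. Circles are ligands, squares receptor chains and the triangle Socs3, and lines only join the symbols of 1 gene. Il6 ranges from 1.581 in KO at day 1 to 86.24 in KO at day 14, and Lifr runs against the other receptor chains.

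The balance between receptor chains shifted with it. The ratio of Lifr to Osmr per length was 0.0574 ± 0.00618 in WT against 0.417 ± 0.0348 in KO on day 1 (SD, n = 3). On day 14 it was 0.169 ± 0.0525 in WT against 0.0683 ± 0.00507 in KO. KO libraries were all above WT at day 1 and all below at day 14. The ratio of Osmr to Il6st was 0.832 ± 0.0199, 0.540 ± 0.108, 0.808 ± 0.16 and 1.24 ± 0.033 in WT and KO at day 1 and WT and KO at day 14, so that the libraries of KO at day 14 alone had more Osmr than Il6st per length. Il6ra kept nearly the same share of Il6st in every group, with mean ratios of 0.0892, 0.0941, 0.099 and 0.102, and overlapping libraries at each day.

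Of the other ligands of the family, Ctf1, which encodes cardiotrophin 1, averaged 2.084 ± 0.169 against 2.965 ± 0.618 CPM (WT against KO) on day 1 (adjusted p = 0.08787 by edgeR). On day 14 its means were 3.599 ± 0.508 and 4.134 ± 0.176 CPM (adjusted p = 0.4941 by edgeR). Of the other receptor chains, 3 of 4 tested were higher in KO at day 1, where 30.6% of all tested genes were. At day 14, 1 of 3 was higher and 1 lower, where 22.7% and 23.7% of all tested genes were. Cntfr, the CNTF receptor that also serves CLCF1, had 55 counts in KO and 2 in WT at day 1, a ratio of 37.62 (exact 95% counting interval 9.931 to 318.4). Lepr, the leptin receptor, rose at day 1 (1.27 ± 0.14) and fell at day 14 (-2.82 ± 0.22, adjusted p = 5.505e-06 and 1.988e-05 by edgeR). Il27ra, a chain of the IL-27 receptor, rose at day 14 from 0.319 ± 0.213 to 6.019 ± 1.00 CPM (4.29 ± 0.40, adjusted p = 4.92e-05 by edgeR).

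Of 10 JAK kinases, STATs and adaptors, 5 were lower and 3 higher in KO at day 1, with a median log2 fold change of -0.31 against 0.01 over all genes tested. Of all those genes, 30.2% were lower and 30.6% higher. At day 14, 6 were higher and 1 lower, with a median of 0.61 against -0.0015, where 22.7% of all tested genes were higher and 23.7% lower. Stat3, which carries most of the gp130 signal, fell at day 1 from 255.9 ± 4.22 to 123.8 ± 5.62 CPM (-1.04 ± 0.06, adjusted p = 4.907e-09 by edgeR) and stood at 212.2 ± 53.4 and 248.6 ± 21.6 CPM in WT and KO at day 14 (adjusted p = 0.3322 by edgeR). The 3 JAK kinases on the list, Jak1, Jak2 and Tyk2, were each lower at day 1 and higher at day 14 (Jak1 and Tyk2 were singled out after their values were seen). Jak2 changed by -1.01 ± 0.06 and 0.87 ± 0.12. Stat5b, a transcription factor activated by JAK2, rose at both days (0.42 ± 0.10 and 0.44 ± 0.11). Stat5a rose at day 14 (1.04 ± 0.17) and the adaptor Gab1 fell (-0.62 ± 0.14).

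The other feedback inhibitors were divided. Of 13, 5 were higher and 6 lower in KO at day 1, where 30.6% and 30.2% of all tested genes were. At day 14, 4 were higher and 4 lower (22.7% and 23.7% of all tested genes). Without WT replicate 1 these were 4 and 6 (30.04% and 30.68% of all tested genes). Cish, an inhibitor induced by STAT5, changed by 2.81 ± 0.42 at day 1 and -2.14 ± 0.50 at day 14 (adjusted p = 6.668e-05 and 0.007076 by edgeR), opposite to Socs3 at each day. Socs2 rose at day 1 (1.76 ± 0.07), and Pias3 and Pias2, named as inhibitors of activated STATs, fell (-1.21 ± 0.09 and -1.03 ± 0.06). At day 14 Socs5 and Socs4 rose (0.73 ± 0.10 and 0.73 ± 0.11) and Pias1 fell (-0.54 ± 0.12). Adam10 and Adam17, proteases that shed the IL-6 receptor from the cell surface, both fell at day 1 (-1.13 ± 0.06 and -0.38 ± 0.06) and rose at day 14 (0.67 ± 0.08 and 0.60 ± 0.08).

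Genes known as STAT3 targets did not move as 1 group. At day 1, 8 of 18 tested were higher and 9 lower in KO (30.6% and 30.2% of all tested genes), with a median log2 fold change of -0.38. At day 14, 8 of 19 were higher and 8 lower (22.7% and 23.7% of all tested genes), with a median of -0.03. Without WT replicate 1 these were 8 and 10 (30.04% and 30.68% of all tested genes), with a median of -0.32. Lcn2, which encodes the iron-binding protein lipocalin 2, averaged 9.562 ± 1.39 CPM in WT and 0.0672 ± 0.0737 CPM in KO on day 1. The day 14 means were 0.763 ± 0.367 and 77.5 ± 40.8 CPM. Saa3, a serum amyloid A gene, averaged 3.835 ± 0.205 against 0.306 ± 0.248 CPM (WT against KO) on day 1 and 15.84 ± 2.05 against 420.7 ± 131.1 CPM on day 14. For Lcn2 the log2 fold changes were -6.96 ± 0.38 and 6.58 ± 0.47, and for Saa3 -3.57 ± 0.39 and 4.72 ± 0.23 (all with adjusted p of 1.222e-05 or less by edgeR). Steap4, a metalloreductase, rose at day 14 from 0.083 ± 0.076 CPM, or 5 counts in WT, to 12.92 ± 1.81 CPM (7.03 ± 0.40). Its counts were too low for a test at day 1. In the other direction, Cebpb and Myc, which encode transcription factors, rose at day 1 (1.51 ± 0.12 and 0.96 ± 0.12), and the kinase gene Pim1 and the AP-1 gene Fos fell at day 14 (-2.01 ± 0.19 and -1.64 ± 0.25).

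Genes that induce Il6 transcription and those that control its mRNA moved as follows. Of 8 tested inducers, 6 were lower and 1 higher in KO at day 1 (median -0.79), and 5 were higher and 1 lower at day 14 (median 0.99, with 5 and 3 without WT replicate 1). Of all tested genes, 30.2% were lower and 30.6% higher at day 1, and 22.7% higher and 23.7% lower at day 14 (30.04% and 30.68% without that library). Il1a, which encodes interleukin-1 alpha, averaged 0.878 ± 0.14 against 0.329 ± 0.14 CPM (WT against KO) on day 1 and 1.836 ± 1.3 against 6.101 ± 2.82 CPM on day 14 (-1.37 ± 0.44 and 1.77 ± 0.51). Nfkb1, the p50 subunit gene of NF-kB, fell at day 1 (-1.20 ± 0.08) and stood at 79.93 ± 11.8 CPM in WT against 204.0 ± 4.53 in KO at day 14 (1.34 ± 0.12). Il1rap, the accessory chain of the IL-1 receptor, rose at day 14 (1.60 ± 0.15) and Il17ra, an IL-17 receptor chain, fell (-0.47 ± 0.09). Rela, the NF-kB subunit p65, rose by 0.18 ± 0.07 at day 1 (adjusted p = 0.04552 by edgeR). Of 6 regulators of Il6 mRNA stability, 4 were lower at day 1 and the other two did not pass, and 3 were higher and 1 lower at day 14 (3 and 2 without WT replicate 1). Zc3h12a, which encodes the nuclease Regnase-1 that degrades Il6 mRNA, fell at day 1 (-1.22 ± 0.14) and rose at day 14 from 16.63 ± 4.04 to 111.1 ± 6.47 CPM (2.73 ± 0.17, adjusted p = 5.917e-06 by edgeR). Zfp36l1 fell at day 1 (-1.27 ± 0.12). The RNA-binding protein genes Rc3h2 and Zfp36 changed by 0.66 ± 0.12 and -0.88 ± 0.17 at day 14.

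**Figure D4:**
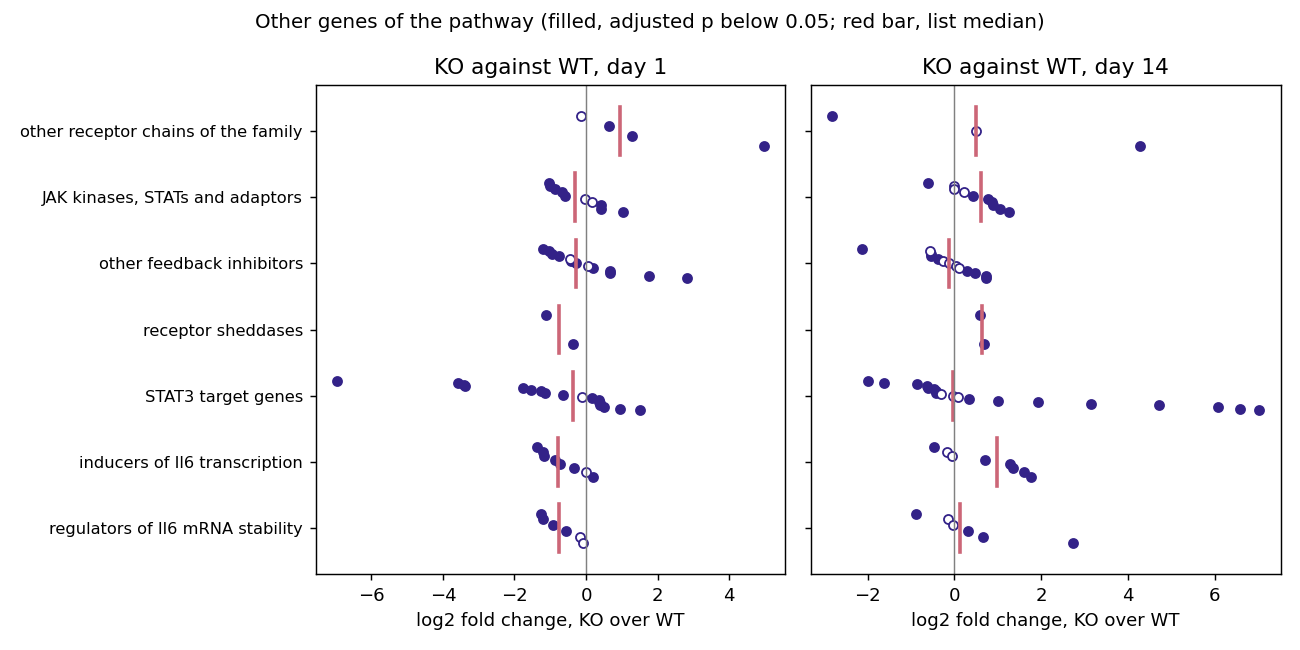
Log2 fold change of KO over WT for the tested genes of 7 lists of the pathway at day 1 (left) and day 14 (right). Each circle is 1 gene, filled where the adjusted p is below 0.05, and the red bar is the list's median. The 8 inducers of Il6 transcription have medians of -0.79 and 0.99, and the STAT3 target genes spread to both sides at both days.

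Genes with the pattern most like a member's were found by the root mean square difference of log2 CPM, each gene centred on its own mean, over 12 libraries and 10298 genes. Closest to Il6 were the chemokine genes Cxcl1 (0.44) and Ccl2 (0.64) and Apol6 (0.71), against 2.12 for Il6 and the median gene. Cxcl1 averaged 93.64 ± 1.95 against 21.12 ± 1.12 CPM (WT against KO) on day 1 and 142.9 ± 25.3 against 1630.0 ± 421.9 CPM on day 14. Closest to Il6st were Ccar2 (0.07), Setdb1 (0.07) and Prkar1a (0.08), against a median of 0.42. Closest to Socs3 were Il4ra (0.15), the IL-4 receptor chain that is also on the list of STAT3 targets, Pdk1 (0.21) and Pfkl (0.23), against a median of 0.96. For Il4ra the same means were 82.75 ± 3.52 against 24.23 ± 0.821 CPM, and 49.56 ± 20.8 against 100.2 ± 3.91 CPM.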

How the data were processed

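RNA-seq libraries of 12 samples were compared in 4 groups of 3. The deposited values are raw counts per gene name, whole numbers in 1 table for each day. The build was mm9, per the submitters' processing notes. Aligner, counting tool, annotation and strand setting were not given in the sources used here. Assignment of reads to overlapping or near-identical genes is therefore uncertain. Table columns name a genotype (CTR read as WT) and a replicate, and each table stands for 1 day. Identical repeats of a name were removed (43 lines at day 1 and 53 at day 14) and names with differing counts left out (2 in each table). The tables shared 26728 names.

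Counts were tested with edgeR 4.0.16 under R 4.3.3 (quasi-likelihood F test after TMM scaling and filterByExpr, Benjamini-Hochberg over all genes tested, called below 0.05). KO was compared with WT in each day's 6 libraries, and every other comparison in 1 fit of 12 libraries over shared names, which also gave the CPM. Each SE is the log2 fold change divided by the square root of its F statistic. A test of the method on simulated counts was run first. Scaling by library size alone moved the median of all genes by 0.12 (log2) for KO against WT at day 1, 0.13 between days in WT and -0.21 for how the KO effect changed. Values are given relative to the TMM scaling.

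The members and all lists were chosen with earlier results of these data known. Named were the 9 members, Nr4a3, up to 2 rising and 2 falling genes of each list called without overlap of groups, and the 3 genes most like Il6, Il6st and Socs3. A few genes chosen this way are left unreported but were kept in all fits and list counts. Alternatives were other scalings, DESeq2 1.42.0, limma-voom (limma 3.58.1), other filters, the replicate number as a block, all libraries in 1 fit, and omission of each library in turn. List counts without WT replicate 1 of day 14 were an alternative added after the data were seen. Replicates carry the same numbers in each group, but same-numbered WT and KO libraries did not deviate together (correlations of -0.0221 to 0.0175), so no pairing was used. Exact counting intervals cover counting error only.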

Additional observations from a re-analysis of the deposited data

Results flagged for a closer look

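The KO effect differed between day 14 and day 1, by the interaction term of the edgeR fit, for 38 of the reported genes that the naming rule takes. Values are the KO effect at day 14 minus that at day 1, on the log2 scale. Among the members these were Il6 (5.62), Lif (1.36), Il11 (1.02), Il6st (1.25), Il6ra (1.2), Lifr (-1.6), Osmr (2.48) and Socs3 (3.11), and Nr4a3 changed by -1.23. Of the pathway genes that the rule takes, upward changes were those of Lcn2 (13.54), Saa3 (8.3), Steap4 (8.07), Il27ra (4.46), Zc3h12a (3.97), Il1a (3.16), Il1rap (2.81), Nfkb1 (2.56) and Jak2 (1.9). Other upward changes among them were those of Adam10 (1.82), Stat5a (1.74), Socs5 (1.49), Stat3 (1.28), Pias3 (1.27), Zfp36l1 (1.25), Socs4 (1.17), Pias2 (1.16), Adam17 (1.0) and Rc3h2 (0.85). Downward changes were those of Cntfr (-7.79), Cish (-4.93), Lepr (-4.07), Pim1 (-2.35), Socs2 (-2.0), Cebpb (-1.81), Myc (-1.55), Pias1 (-0.58), Gab1 (-0.55) and Il17ra (-0.45). Cntfr had 2 counts in WT at day 1, Lcn2 4 in KO at day 1 and Steap4 5 in WT at day 14. Their values thus depend on the prior count of the fit. Over all 15973 genes tested, the KO effect moved upward for 29.5% and downward for 30.5%. Those genes were not chosen by a KO effect, so these shares are no fair measure for the pathway genes listed.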

How the results depend on the processing

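Over all comparisons, 1064 of 1107 member values under the alternatives kept their direction and their side of the threshold, 25 lost a call and 16 gained one. The 2 that changed sign were both of Clcf1 between the days in KO, a change of -0.0078 in the fit as reported, which was 0.0250 without KO replicate 3 of day 1 and 0.0294 without KO replicate 1 of day 14 (range over libraries left out -0.0434 to 0.0294). The comparison of KO at day 1 with WT at day 14 depended most on single libraries: 576 to 5538 genes were called when each library was left out (1562 with all), and 4 to 8 members (5 with all), the highest values without WT replicate 1 of day 14. The cause was not tested. Without that library, 9209 genes were called between KO and WT at day 14. With library size alone, Clcf1 passed at day 14 (-0.43), in the interaction (-0.42) and between days in WT (0.34). Il11 (0.80, interaction), Osmr (-0.37, days in WT) and Il6ra (-0.19, days in WT, adjusted p = 0.232 by edgeR) then lost their calls. The Il6ra call between days in WT was also lost with DESeq2 (adjusted p = 0.05434 by DESeq2). It was lost too with size factors of the DESeq2 kind and with a filter of at least 1 CPM in 3 libraries (adjusted p = 0.06203 and 0.06568 by edgeR). With the replicate number as a replicate block, the Clcf1 change at day 14 was -0.35 (adjusted p = 0.0456 by edgeR), while 6 members and 9090 genes were called at day 1 and 8 members and 6714 genes at day 14. No other member call changed under the block, and the numbers are not known to pair the samples. Leaving a library out leaves 2 in its group, and Il11, with 39 to 134 counts a library, is the member most limited by depth.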
